A study of Mus musculus with 28 samples.

Results

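The genes for the proteins of the cytosolic ribosome were examined in the chromatin of retinal Müller glia, the radial glial cells that span the retina and surround its neurons and vessels. Members were the protein-coding genes of chromosomes 1 to 19 in GENCODE M21 whose symbols start with Rpl or Rps and a number, together with Rplp0, Rplp1, Rplp2 and Rpsa, without the Rps6 kinases and without symbols that mark a pseudogene. The rule took 82 of 20722 coding genes: 40 of the large subunit, 30 of the small subunit, 3 of the P stalk, 8 paralogues by name, and Rps19bp1, which encodes a binding partner of a ribosomal protein and no subunit. Genes on the X chromosome (Rpl10, Rpl36a, Rpl39 and Rps4x) lie outside this rule, and so do genes such as Fau and Rack1, which encode ribosomal proteins under other names.

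Accessible chromatin was mapped by omni-ATAC, a protocol that tags open DNA by transposase insertion, in Müller cells from retinae of 6-month-old mice. The db/db mice, on a BKS background, are homozygous for the db mutation in Lepr, which encodes the leptin receptor, and become obese and diabetic; the study obtained stocks from different suppliers and does not say which the ATAC-seq animals came from. The controls are labelled WT; the methods of the study allow wild-type and heterozygous db/+ mice as controls and animals of both sexes, and do not say which entered the ATAC-seq. The cells had been sorted with magnetic beads, by removal of CD11b-positive and CD31-positive cells and capture of CD29-positive cells, so that the fraction can also hold other cells that carry CD29, astrocytes among them, and, as the study states, some photoreceptors. The labels give 2 replicates per genotype, of which 1 list of accessible regions per genotype, attached to replicate 1, was analysed, so differences between genotypes are given without replicates and without p-values.

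The control list held 46189 regions after merging of overlapping rows and the db/db list 64883. The promoters of all 9 Müller cell markers (Glul, Rlbp1, Slc1a3, Kcnj10, Aqp4, Sox9, Vim, Dkk3 and Aldh1l1) were open in both lists. Most were weak in signal, with 7 of 9 in the control and 8 of 9 in the db/db list below the 25th percentile of other coding promoters. The promoters of rod photoreceptor markers were open for 8 of 8 genes in the control list and 3 of 8 in the db/db list. Of the markers of other cells, 1 of 5 for microglia, 2 of 5 for vascular cells and 1 of 3 for astrocytes were open in each list, with P2ry12, Kdr, Pdgfrb and S100b as the open ones. Cone markers were open for 2 of 3 genes in the control and 1 of 3 in the db/db list, bipolar cell markers for 3 of 5 in each, and amacrine and ganglion cell markers for 2 and 3 of 6. In chromatin from many cells, fewer nuclei of a type and less open DNA per nucleus cannot be told apart.

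The cytosolic ribosome joins a small subunit, which reads the mRNA, and a large subunit, which forms the peptide bonds and carries the P stalk, an arm that recruits and activates elongation factors. Its proteins are needed in near-equal amounts, and in mammals they are encoded by single genes scattered over the chromosomes. These genes are short and among the most actively transcribed in any cell. Their transcripts typically start with a cytosine within a run of pyrimidines (the 5′ terminal oligopyrimidine tract), through which their translation is coupled to growth signals, and many of their introns host small nucleolar RNAs (snoRNAs), which guide the modification of ribosomal RNA. Each protein has also left many processed pseudogenes, reverse-transcribed copies inserted elsewhere.

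A promoter was called open where the summit of a region, its point of highest enrichment, lay 1 kb or less from a transcription start site (TSS) that GENCODE annotates for the gene. In the control list, 78 of 82 ribosomal protein genes were open (95.1%, 95% Wilson interval 88.1 to 98.1, which covers counting error only), against a background of 58.8% of all coding genes. In the db/db list, 78 of 82 were open as well, against a background of 61.8%. The same 4 genes were closed in both lists, and all of them are paralogues. By this definition, every one of the 73 core subunits (large subunit, small subunit and P stalk) was open in both genotypes. At Rpl4 in the control list, and at Rpl35 in both lists, the region did not cover the GENCODE TSS. The main annotated TSS itself lay inside a region for 76 members (92.7%) in the control list and 77 (93.9%) in the db/db list, compared with 53.3% and 55.7% of other coding genes.

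**Figure D1:**
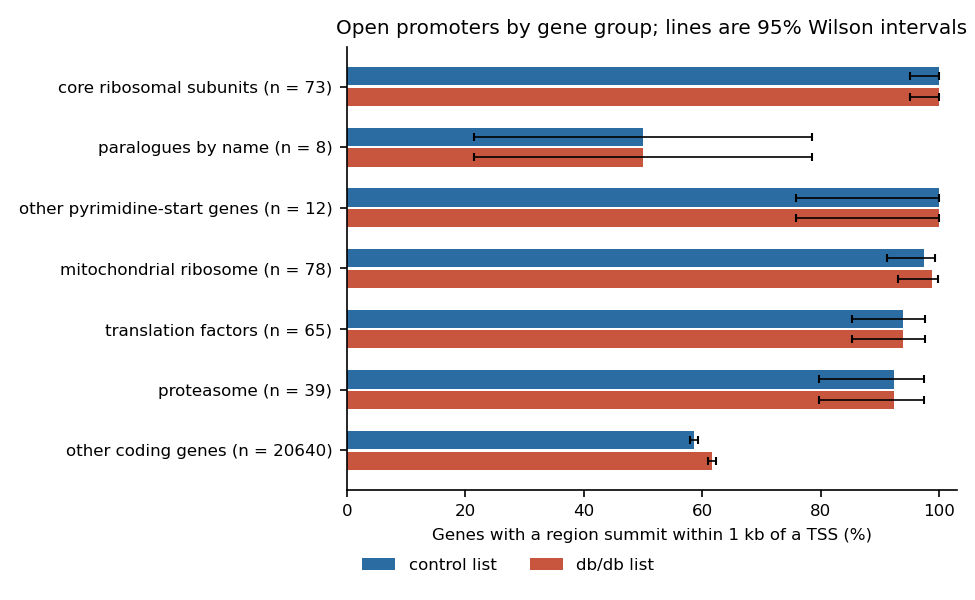
Share of genes with a region summit within 1 kb of a TSS (horizontal axis, %) for 7 gene groups (vertical axis, with the number of genes), in the control and the db/db list; bars are shares and thin lines are 95% Wilson intervals for counting error. Core ribosomal subunits stand at 100% in both lists, the paralogues at 50%, and other coding genes at 58.7% and 61.7%.

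The paralogues divided into 4 open and 4 closed genes, and none was open in 1 list only. Rpl22l1, which encodes a relative of Rpl22, Rpl36al, an expressed relative of Rpl36a, Rpl7l1 and Rps27l were open in both genotypes. Rpl10l and Rpl39l, which are known as testis genes, Rpl3l, known from striated muscle, and Rps27rt, a retrogene copy of Rps27, had no region within 1 kb of a TSS in either list. The promoters of the 4 closed genes are shown from 80 bases before to 20 bases after the RefSeq start, followed by those of Rps27 and Rps27l for comparison (RefSeq, GRCm38.p6, 5′ to 3′ on the strand of the gene), with the longest pyrimidine run that reaches within 5 bases of the start in capitals. Of runs of equal length the first is in capitals. At Rps27rt a run of the same length begins at the RefSeq start itself and stays in lower case.
Rpl10l (chr12:66284382-66284481, minus strand): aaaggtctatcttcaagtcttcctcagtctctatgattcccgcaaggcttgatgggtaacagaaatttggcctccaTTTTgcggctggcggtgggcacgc
Rpl39l (chr16:10170148-10170247, plus strand): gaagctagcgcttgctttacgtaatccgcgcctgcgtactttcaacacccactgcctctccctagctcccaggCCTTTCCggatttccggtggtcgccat
Rpl3l (chr17:24727746-24727845, plus strand): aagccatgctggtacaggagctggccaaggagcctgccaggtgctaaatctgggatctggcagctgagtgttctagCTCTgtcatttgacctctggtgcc
Rps27rt (chr9:114982720-114982819, minus strand): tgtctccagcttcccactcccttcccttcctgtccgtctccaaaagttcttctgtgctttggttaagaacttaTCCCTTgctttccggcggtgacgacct
Rps27 (chr3:90213629-90213728, minus strand): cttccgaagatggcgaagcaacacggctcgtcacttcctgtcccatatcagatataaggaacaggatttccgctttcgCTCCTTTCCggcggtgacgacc
Rps27l (chr9:66946006-66946105, plus strand): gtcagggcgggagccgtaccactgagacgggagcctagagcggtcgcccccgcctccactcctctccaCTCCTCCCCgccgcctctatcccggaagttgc

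Rps27 and Rps27rt shared an unbroken run of 38 identical bases that starts at position 2 of Rps27 and position 1 of Rps27rt, counted from the RefSeq start, so that the retrogene begins with the sequence of the parent transcript. Of the 250 bases before that run, aligned without gaps, 53 were identical (21.2%). The promoter of Rps27 on chromosome 3 lay at the 84.6th percentile of signal in the control list and the 87.5th in the db/db list, and Rps27rt on chromosome 9 had no region. A window of RefSeq was matched for 61 of the 82 members.

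The strength of a region was read from the signal, the deposited enrichment value of its summit, and given as a percentile. This is the share of regions at promoters of other coding genes in the same list with a lower signal. The median signal of those other promoters was 15.0 in the control list and 13.5 in the db/db list. The median ribosomal protein gene stood at the 66.0th percentile in the control list (interquartile range 40.5 to 84.3) and the 65.6th in the db/db list (36.8 to 79.5), where other open coding genes had a median of 51.3 in each. Signal above the 75th percentile was found for 34 of 78 members (43.6%) in the control list, against a background of 25.8% of open coding genes, and for 26 of 78 (33.3%) in the db/db list, against 25.8%. Below the 25th percentile were 9 of 78 members in each list (11.5%), against 23.6% of other open coding genes. This lead depended on the measure: ranked by the deposited −log10 p of the summit instead, the median member stood at 54.2 in the control list and 55.8 in the db/db list, and 18 of 78 (23.1%) and 17 of 78 (21.8%) were above the 75th percentile, compared with 26.1% and 27.4% of other coding genes open in both lists.

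**Figure D2:**
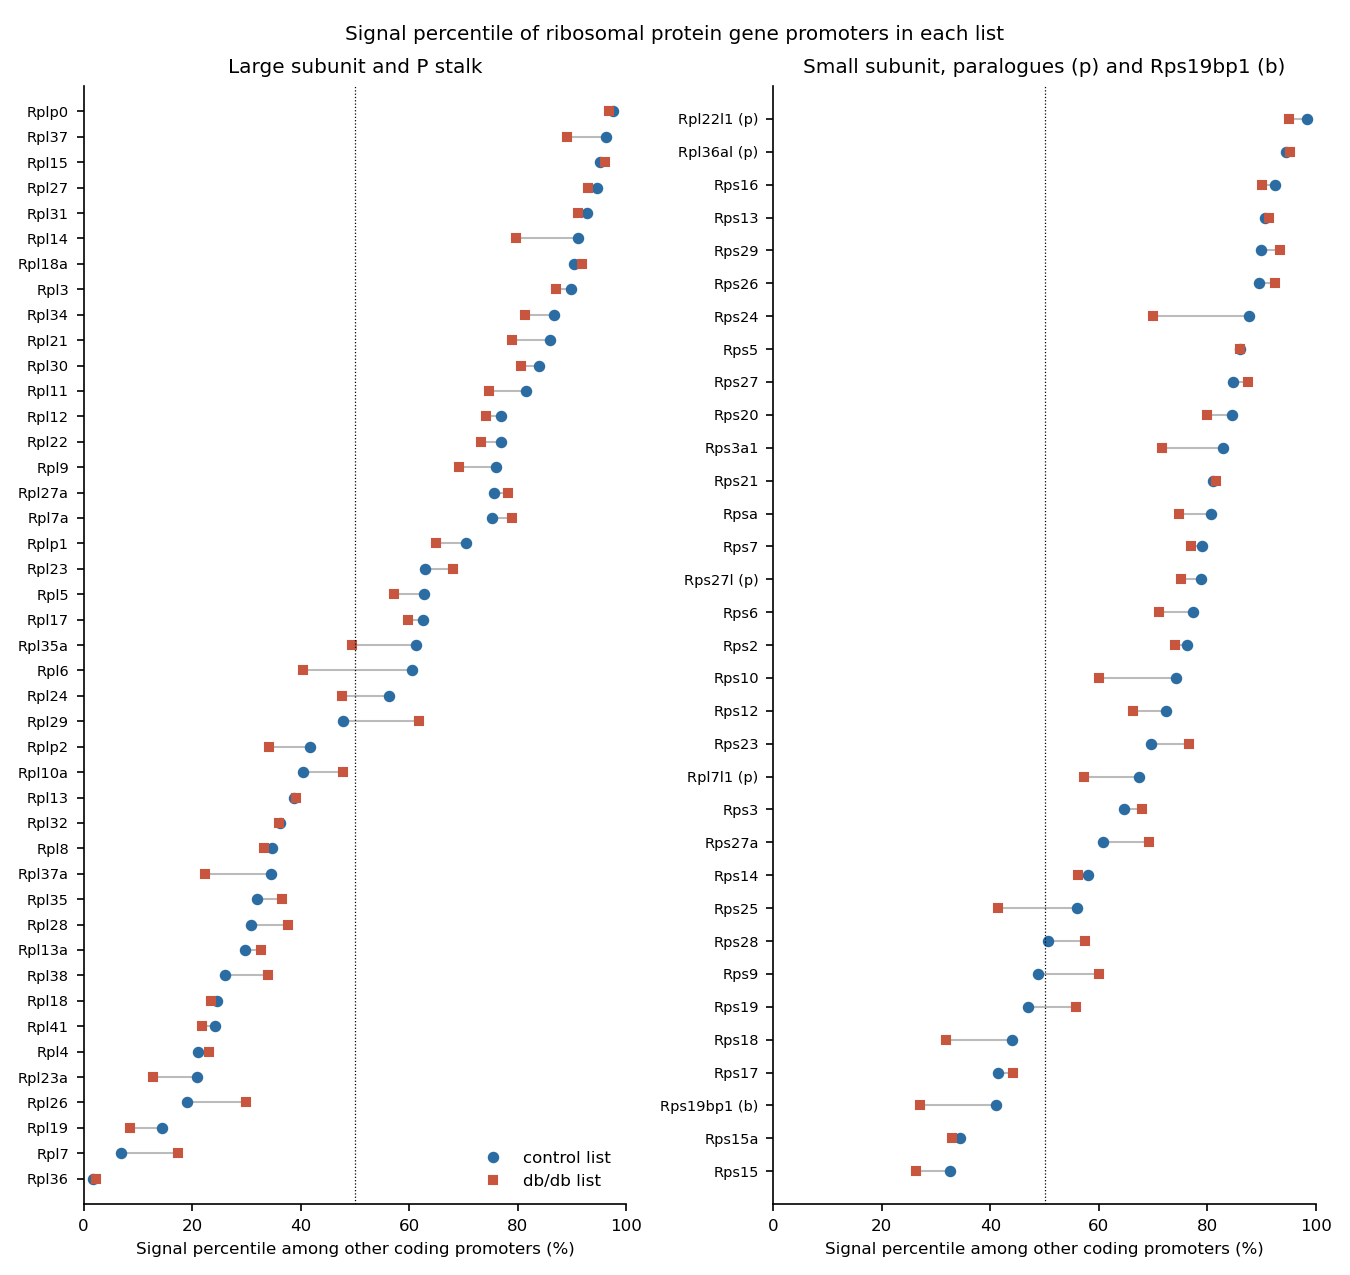
Signal percentile among promoters of other coding genes (horizontal axis, %) of 76 of the 78 open ribosomal protein genes, 1 gene per row sorted by the control list; circles are the control list, squares the db/db list, the grey line joins them and the dotted line marks 50. Members run from Rpl36 at 1.8 and 2.3 to Rpl22l1 at 98.4 and 95.04, while the change of a gene between the lists ranged from −20.1 to 14.0 points.

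Within the subunits the median percentile was 73.2 (control) and 69.6 (db/db) for the 30 genes of the small subunit and 60.9 and 53.4 for the 40 of the large subunit. The 4 open paralogues had the highest medians, 86.6 and 85.1, although 4 others of the 8 were closed. In the P stalk, Rplp0, the scaffold protein of the stalk and a common reference gene, stood at 97.5 in the control and 96.8 in the db/db list. Rplp1 and Rplp2, the acidic proteins that dimerise on it, stood lower, at 70.5 and 64.9 for Rplp1 and at 41.7 and 34.3 for Rplp2. These proteins assemble in a fixed ratio, and the signals at their promoters spanned more than the interquartile range of all members. Rpsa, which encodes the small-subunit protein also known as the laminin receptor, had percentiles of 80.7 and 74.8.

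The strongest promoters in the control list were those of Rpl22l1 (signal 27.8, percentile 98.4), Rplp0 (26.8, 97.5), Rpl37 (25.8, 96.3), Rpl15 (25.0, 95.2) and Rpl27 (24.7, 94.5). In the db/db list they were Rplp0 (24.4, 96.8), Rpl15 (24.0, 96.2), Rpl36al (23.4, 95.3), Rpl22l1 (23.3, 95.04) and Rps29 (22.3, 93.3). Rpl15, Rps29 and Rpl31 also had the 3 highest ranks by −log10 p in both lists. The weakest in the control list was Rpl36, with a signal of 5.16 (percentile 1.8) and 4.79 in the db/db list (percentile 2.3). Rpl36 was also low by −log10 p, at 7.3 and 9.3, so the low rank of this core subunit did not rest on the choice of measure. Rpl7 (6.9 in control, 17.3 in db/db), Rpl19 (14.5 and 8.6), Rpl26 (19.1 and 29.9) and Rpl23a (20.9 and 12.8) were also among the weakest 5 of either list. For Rpl7, a protein of the large subunit, the measures parted, with ranks of 48.0 and 63.5 by −log10 p.

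Promoters of strong and weak signal are shown next. These are the 3 members with the highest and the 3 with the lowest control percentile among those with a RefSeq window that reaches at most 30 bases past the main TSS; the window runs from 80 bases before to 20 after the RefSeq start (GRCm38.p6), and capitals mark the longest pyrimidine run within 5 bases of the start.
Rplp0 (chr5:115559387-115559486, plus strand): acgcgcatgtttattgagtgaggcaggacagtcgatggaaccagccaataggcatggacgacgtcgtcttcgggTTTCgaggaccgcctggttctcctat
Rpl37 (chr15:5116533-5116632, plus strand): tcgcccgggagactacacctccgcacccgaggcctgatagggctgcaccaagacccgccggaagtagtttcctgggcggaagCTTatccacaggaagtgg
Rpl27 (chr11:101442165-101442264, plus strand): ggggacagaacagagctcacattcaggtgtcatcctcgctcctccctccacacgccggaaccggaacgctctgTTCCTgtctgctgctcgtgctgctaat
Rpl19 (chr11:98026844-98026943, plus strand): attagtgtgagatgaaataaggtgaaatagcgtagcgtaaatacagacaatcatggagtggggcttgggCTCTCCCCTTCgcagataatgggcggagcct
Rpl26 (chr11:68901486-68901585, plus strand): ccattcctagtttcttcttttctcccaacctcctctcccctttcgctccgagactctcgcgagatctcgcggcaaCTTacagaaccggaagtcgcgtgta
Rps15 (chr10:80292351-80292450, plus strand): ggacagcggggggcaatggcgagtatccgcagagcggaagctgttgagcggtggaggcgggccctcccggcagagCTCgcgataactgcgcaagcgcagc

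At the RefSeq start, the strong Rplp0, Rpl37 and Rpl27 carried runs of 4, 3 and 5 pyrimidines, and the weaker Rpl19, Rpl26 and Rps15 runs of 11, 3 and 3. The printed windows of Rpl37, Rpl27 and Rps15 end before the main GENCODE TSS, which lies 32, 53 and 22 bp past the RefSeq start. Their runs therefore do not describe the bases at that TSS. Rps15, a small-subunit protein, stood at percentile 32.5 in the control and 26.4 in the db/db list.

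Over all 61 matched members, the RefSeq windows of 300 bases (250 before the start, 50 after) had a median GC content of 57.7%, against 58.0% over 14392 coding promoters, but more CpG dinucleotides, with a median of 22 against 16. Of the 61 windows, 57 belong to open genes, while the 14392 promoters, the background of all features below, include closed ones. Other coding genes open in the control list (9219 with a window) had a median GC content of 62%. A start with C followed by 4 pyrimidines was found in 13 members (21.3%) and in 2.23% of all promoters; these were Rpl14, Rpl15, Rpl28, Rpl35, Rpl38, Rplp2, Rps10, Rps15a, Rps18, Rps21, Rps27, Rps27rt and Rps6. A pyrimidine run of at least 10 bases reached within 5 bases of the start in 15 members (24.6%) against 5.07%, whereas a purine run of that length did so in 0 members against 4.90%. A run of either kind of at least 6 bases gave 47.5% against 21.2% for pyrimidines and 6.56% against 21.3% for purines. A start annotated a few bases off moves these counts, which use the RefSeq start. Among the open genes with the C and pyrimidine start, the main GENCODE start lay from 2 bp (Rps21) to 493 bp (Rpl35) away from it. The closed Rps27rt holds the pyrimidine start that it inherited with its transcript.

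Short strings named after factors were counted on both strands of the same windows. The ETS string CCGGAAG occurred in 23 members (37.7%) and 13.5% of all promoters, the YY1 string AAGATGG in 9 (14.8%) and 6.64%, and the NRF1 string TGCGCA in 12 (19.7%) and 11.0%. The SP/KLF string GGGCGG was in 36 members (59.0%) and 52.2% of promoters, and the CCAAT string was less frequent, in 18 members (29.5%) against 38.0%. TATAAA or TATATA, searched on the strand of the gene from 40 to 21 bases before the start, occurred in 4 members (6.56%: Rpl22l1, Rpl4, Rps18 and Rps26) and 3.75% of promoters. Strings may overlap in part, and a match is a description of letters, not a bound site. Open members with the ETS string (22) had median percentiles of 76.8 and 72.8, and those without it (35) 64.6 and 66.3. For the C and pyrimidine start the order was opposite, 59.1 and 48.9 with it (12) and 72.3 and 69.1 without (45).

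**Figure D3:**
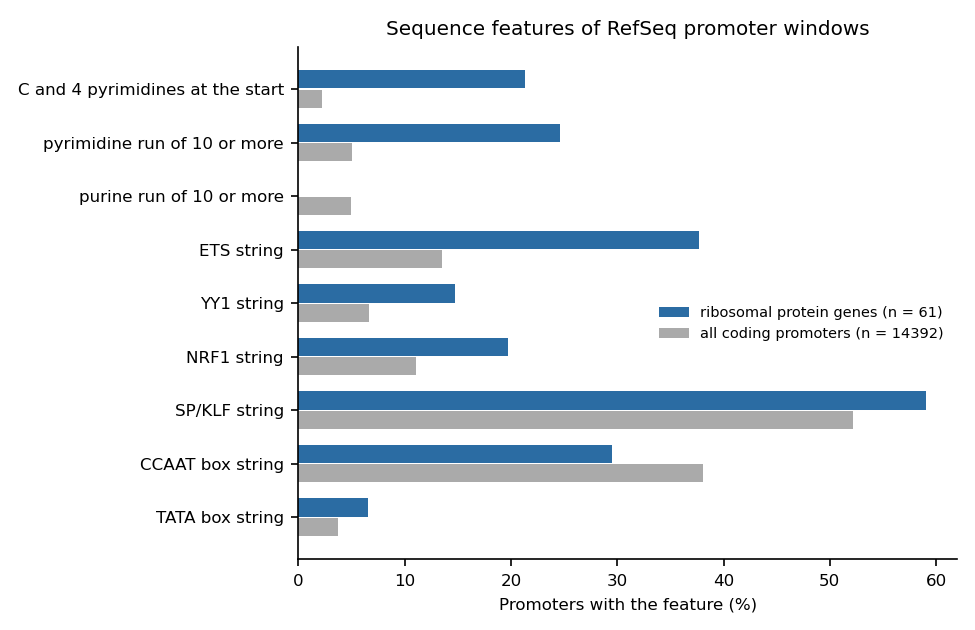
Share of promoter windows with each sequence feature (horizontal axis, %) for 61 ribosomal protein genes and 14392 coding promoters of RefSeq; bars are shares without error. The start with C and 4 pyrimidines stands at 21.3% against 2.23%, and the CCAAT string is the one shown that is less frequent in ribosomal protein genes apart from long purine runs.

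Regions at ribosomal protein genes had a median width of 903 bp in the control list (interquartile range 794 to 1029) and 935.5 bp in the db/db list, against 969 and 967 bp at other coding genes. Regions over 1000 bp were found at 32.1% and 33.3% of open members, compared with 45.7% and 45.6% of others. The genes beneath them were short: members spanned a median of 3399.5 bp from start to end and other coding genes 17706 bp, so the promoter region took up 15.5% of the gene body in the control list and 15.0% in the db/db list, against 2.11% in each for other genes. The widest were Rpl10a (1474 bp in control, 1556 in db/db), Rpl7 (1446 and 1445) and Rpl36al (1208 and 1244). The narrowest in the control list were Rpl36 (475 bp, and 464 in db/db), Rpl23a (508 and 501) and Rps26 (520 and 509), but in the db/db list Rpl19 was narrower still, with 869 bp in the control list and 414 in db/db. Near a TSS of Rpl19 the control list had 1 region and the db/db list 2, of which the one of higher signal was taken. Rps26 had 2 such regions in each list.

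The summit lay at a median of 25 bp upstream of the nearest TSS in the control list (−25 bp, interquartile range −69.5 to 5.2) and at −28 bp in the db/db list, near the −33 and −32 bp of other coding genes. It was within 100 bp of a TSS for 59 of 78 members (75.6%) in the control and 60 of 78 (76.9%) in the db/db list, compared with 67.4% and 64.9% of other genes. Measured to the RefSeq start of the 57 open members with a window, the median was −48 and −47 bp, against −41 and −38 bp at other genes, and 68.4% and 66.7% lay within 100 bp against 59.2% and 56.8%. The summit fell into an exon for 30 members (38.5%) in the control list, against 32.8% of other genes, and into an intron for 5 (6.41%), against 14.4%, with 43 (55.1%) upstream of the gene, against 52.7%. In the db/db list the counts were 35 (44.9%), 5 (6.41%) and 38 (48.7%), against 34.2%, 15.0% and 50.7%. Several summits shared the region in 60 members (76.9%) and 55 (70.5%), against 70.7% and 69.4% of others.

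**Figure D4:**
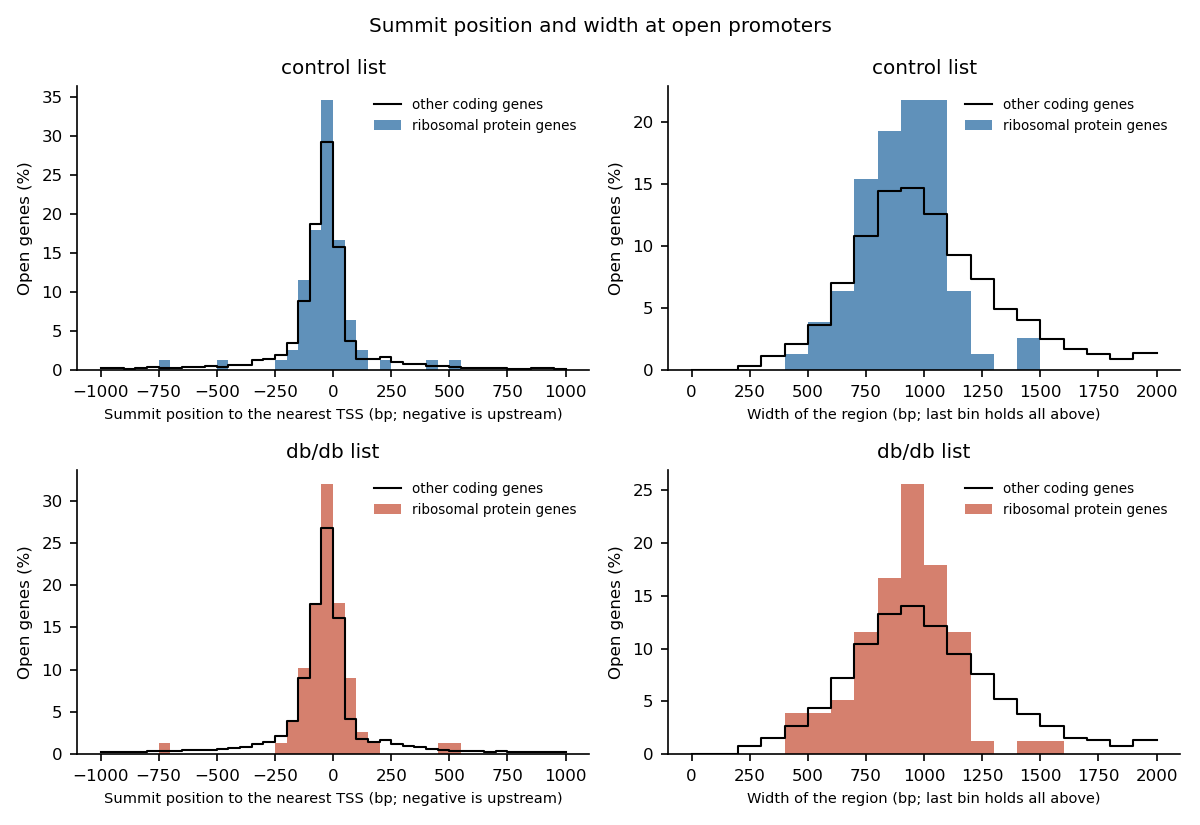
Summit position to the nearest TSS (left, bp, negative is upstream, 50 bp bins) and width of the region (right, bp, 100 bp bins) as the share of open genes (vertical axis, %), for ribosomal protein genes (filled bars) and other coding genes (black line), in the control list (top) and the db/db list (bottom). Both groups peak just upstream of the TSS, and the widths of ribosomal protein genes gather around their medians of 903 and 935.5 bp.

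Of the 4 members with the farthest summits from the GENCODE TSS in the control list, Rpl7, Rpl38 and Rpl35 had them at nearly the same place in db/db and Rpl4 did not. At Rpl7 the summit lay 719 bp upstream in the control list (−719 bp) and at −715 bp in db/db, in a region of 4 summits that runs from the TSS outward. At Rpl38 it lay at 506 and 502 bp, in an intron, again in a region with 4 summits, of which others lay at −29 and −23 bp. At Rpl35 the summit was at 445 and 453 bp downstream, in a region that does not reach the GENCODE TSS, while the RefSeq start of Rpl35 is 493 bp away from that TSS; against the RefSeq start the summit lay at −48 and −40 bp.

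Rpl4 was the one member with a region in 1 list only. The same share over other coding genes is not given here, so this count cannot be called low or high. Rpl4 lies on chromosome 9, has a TSS of Zwilch, a kinetochore gene on the opposite strand, within 1 kb of its own, and hosts 5 snoRNAs. In the control list the only region, chr9:64172583-64173186, had its summit at −466 bp and a signal of 10.1 and did not cover the TSS of Rpl4 at 64173375. The db/db list held the matching region, chr9:64172635-64173186, with a signal of 7.92, and a second one, chr9:64173277-64173812, whose summit lay at 27 bp with a signal of 9.33 and a −log10 q of 72.0. The second region is found in the db/db list alone; with 1 list per genotype, no replicate shows whether the control lacks it.

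Between the genotypes, all 78 open members were open in both, and their signal ranks moved by small amounts. At Rpl4 the regions compared between the lists were different ones. The median change of percentile, db/db minus control, was −1.88 points (95% interval of the median over genes −3.59 to 0.43, for these lists only), with 31 genes higher and 47 lower in db/db. Other coding genes had a median of 1.71 and 62.1% of them were higher. More than 10 points lower were 12 of 78 members, where the background over coding genes open in both lists was 6.46%, and more than 10 points higher were 4 of 78, where the background was 14.6%. Made of equal numbers of regions, the lists gave members a median of −3.78 and other genes −0.25, with 16 members (20.5%) over 10 points lower and 1 (1.28%) higher, where all coding genes gave 10.8% lower and 9.65% higher. Ranked by −log10 p, the numbers were 7 (8.97%) lower and 3 (3.85%) higher, where all coding genes gave 4.25% lower and 14.6% higher. The lists differ in length and in the number of open rod marker promoters (8 of 8 in control, 3 of 8 in db/db), and the part of either in this change was not tested.

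Among the largest differences to the lower side were those at Rpl6 (60.5 in control, 40.4 in db/db), Rps24 (87.7 and 69.9), Rps25 (56.0 and 41.4), Rps10 (74.1 and 60.1) and Rps19bp1 (41.0 and 27.0). Mutations of Rps24 and Rps10 in humans are known from Diamond-Blackfan anaemia, a failure of red cell formation. To the higher side they were at Rpl29 (47.8 and 61.8), Rps9 (48.8 and 60.0), Rpl26 (19.1 and 29.9), Rpl7 (6.9 and 17.3) and Rps19 (46.9 and 55.8), the last also a Diamond-Blackfan gene. By position in the ribosome, the large subunit had a median change of −1.57 (16 higher, 24 lower), the small subunit −1.64 (14 and 16), the P stalk −5.64 (0 and 3) and the open paralogues −3.54 (1 and 3). The summit of 49 members (62.8%) stayed within 10 bp between the lists, as it did for 62.4% of other genes. It lay over 100 bp apart at 4 members (5.13%), Rpl4, Rps25, Rps15a and Rps27a, against 5.44% of other genes. In width, 45 of 78 regions (57.7%) were wider in db/db, against 54.7%.

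A percentile moves more easily in the middle of its range, so the change was also read within 4 ranges of the mean percentile. Members had a lower median change than other coding genes in each range: 0.56 against 2.75 in the lowest (9 members), −0.78 against 3.13 (16), −5.57 against 1.73 (21) and −2.26 against 0.37 in the highest (32). The gap was largest in the range from 50 to 75.

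**Figure D5:**
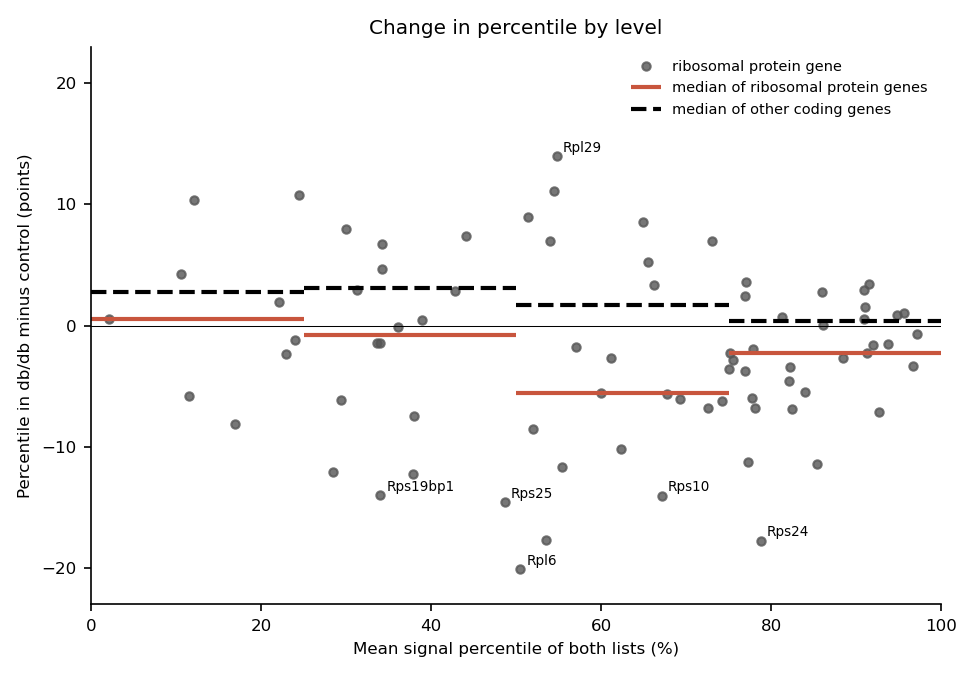
Change in signal percentile, db/db minus control (vertical axis, points), against the mean percentile of both lists (horizontal axis, %) for the 78 ribosomal protein genes open in both; each point is a gene, solid bars are medians of ribosomal protein genes in 4 ranges of the mean percentile and dashed bars those of other coding genes. The solid bar lies below the dashed bar in each range, by most between 50 and 75.

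Genes that work beside the ribosome were as widely open. Of 78 mitochondrial ribosomal protein genes, 76 were open in the control list and 77 in the db/db list, with median percentiles of 61.2 and 59.3. Genes named as translation initiation or elongation factors (symbols starting with Eif or Eef and a number) were open for 61 of 65 in both (68.6 and 71.7). They were chosen by symbol alone and can include genes of other function. Subunits of the proteasome, which degrades proteins, were open for 36 of 39 in both (76.0 and 69.8). The median change was 0.81 for the mitochondrial ribosome, −1.66 for the translation factors and −1.04 for the proteasome, so a negative median was not particular to the cytosolic ribosome. All 12 other genes with pyrimidine starts or with ribosomal proteins under other names were open in both lists, and their median change was 1.78 (8 higher, 4 lower). Among them Eef2, the elongation factor that moves the ribosome along the mRNA, was nearly as low as Rpl36, at 2.5 in the control and 3.9 in the db/db list. Ybx1, which encodes an mRNA-binding protein, was at 92.7 and 91.9.

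Members that host snoRNAs (28 genes with 56 annotated snoRNAs) had median percentiles of 73.8 in the control and 69.9 in the db/db list, and open members without one (50) had 61.0 and 60.0. The 16 members with the TSS of another coding gene on the opposite strand within 1 kb had medians of 68.2 and 69.2, against 66.0 and 63.3 for the other open members. In these 16 genes the region can belong to either partner.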

How the data were processed

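ATAC-seq peak lists of Müller cells from 1 control and 1 db/db sample (replicate 1 of each, 6 months) were used; lists of the second replicates and the RNA-seq samples were not analysed here. For each row the authors deposited coordinates, a summit, a signal (read here as an enrichment), −log10 p and −log10 q values, and a score that was not used. The build is mm10 per the submitters' processing notes; the peak caller, its threshold and whether replicates were pooled are not given in the sources used here, so values were compared as ranks within a list. The smallest deposited −log10 p was 2.00. Read depth is unknown, and the number of rows (81757 and 109995) cannot replace it.

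With Python 3.11.15, pandas 2.3.3, numpy 2.4.6, scipy 1.17.1 and matplotlib 3.10.9, overlapping rows were merged to 1 region that kept the row of highest signal. TSS were the 5′ ends of protein-coding transcripts of GENCODE M21, and each gene took the region of highest signal with a summit within 1 kb. Percentiles refer to 10981 (control) and 11603 (db/db) distinct regions at other coding promoters. Shares have Wilson intervals and medians binomial ones, which cover counting error only. No test was made, since there is 1 list per genotype and genes are not replicates.

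Promoter windows came from RefSeq (GRCm38.p6). Members and gene lists were chosen with earlier results of these data known. Members named are the 5 highest and 5 lowest percentiles of each list, the 5 largest changes in each direction, the 3 widest, narrowest and farthest regions, all paralogues, the P stalk and Rpsa; Rps27 beside Rps27rt, Rpl31 and Rps15, and the other genes of translation singled out, were chosen after values were seen. A few items that this rule takes are not reported here. Alternatives were stricter q values, no merging, 1 TSS per gene, other windows, core subunits only, lists of equal numbers, ranking by −log10 p, and 50% overlap. Merging, summit distances, percentiles, overlaps, median intervals and the search for pyrimidine runs were tested on simulated data.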

Additional observations from a re-analysis of the deposited data

How the results depend on the processing

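Of 67 values recomputed under other settings, 62 moved by less than their interval or kept their count and 5 moved further; none turned in direction. Without the paralogues and Rps19bp1, the share of open genes was 100% in the control list and 100% in the db/db list, because the 4 closed members were left out. With lists of equal numbers the median change in percentile was −3.78 points. Ranked by −log10 p, the median percentile was 54.2 in the control list and 55.8 in the db/db list, so the lead in the median was nearly lost. The share of members above the 75th percentile, not among the 67 values, then fell below that of other coding genes open in both lists. It was 23.1% against 26.1% in the control list and 21.8% against 27.4% in the db/db list. The cause of these shifts was not tested. Counts of members over 10 points lower in db/db, added after seeing the data, were 16 with equal numbers (all coding genes 10.8%), 7 by −log10 p (4.25%), 10 with 1 TSS per gene (6.20%) and 12 with summits within 500 bp (6.55%), against 12 as reported (6.46%). The number of members higher by over 10 points was 1 (all coding genes 9.65%), 3 (14.6%), 4 (14.4%) and 3 (14.5%) in the same order, against 4 (14.6%).

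No paired analysis was possible because there was 1 list per genotype. Depth is unknown, and the weakest region that either list holds depends on it; this bears on the region at Rpl4 found in the db/db list alone.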

Other observations

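Annotated pseudogenes of the ribosomal proteins were open about as often as other processed pseudogenes. In the control list 7 of 259 (2.70%) had a region summit within 1 kb of their start and in the db/db list 9 (3.47%), compared with 2.25% and 3.00% of 8934 other processed pseudogenes. Away from any coding TSS by over 2000 bp, the counts were 5 of 252 (1.98%) and 7 (2.78%), against 1.89% and 2.59%. Rpl29-ps2 was the open pseudogene of highest signal in both lists, 19.98 in the control list and 21.4 in the db/db list, and lies near a coding TSS. Rpl32-ps had the lowest, with 3.94 and 4.22. The 6 coding genes whose symbols mark them as pseudogenes, which the rule left out, had 0 open promoters in either list. The 8 Rps6 kinases, which are no ribosomal subunits, had 7 open promoters in the control and 8 in the db/db list.

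Other accessible regions lay more than 1 kb from a TSS but within 5 kb of the gene for 39 members (47.6%) in the control list and 43 (52.4%) in the db/db list, against 47.9% and 55.0% of other coding genes. Inside the gene span such regions were found for 6 members (7.32%) in each list, against 31.3% and 37.7% of other genes, which are longer. Across the 57 open members with a RefSeq window, the GC content of the window and the signal percentile had a Spearman rho of 0.31 in the control list and 0.33 in the db/db list, and across 9219 other genes it was −0.05 in the control list; genes of a list share its library, and these values are descriptions.

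The deposited signal of 73 of 78 members (93.6%) was lower in the db/db list, with a median log2 ratio of −0.18, and that of other coding genes was lower in 75.4%, with a median of −0.10. The scale of the signal in each list is not given in the sources used here. Signal and −log10 p ranked some members far apart in the control list: Rpl18 stood at 24.6 by signal and 75.2 by −log10 p, Rps19 at 46.9 and 85.5, and Rpsa at 80.7 and 47.0. These 3 genes were chosen after their values were seen.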
